A study of Saccharomyces cerevisiae with 15 samples.

Results

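The ulp2, slx5 and set1 single deletion strains of budding yeast (Saccharomyces cerevisiae) expressed genes of the alpha mating type, and the ulp2 slx5 double mutant and the wild type (WT) expressed genes of the a mating type. The genes described here were selected on their FPKM values in all 15 libraries: their 9 values in the alpha-type libraries (ulp2, slx5 and set1) lay entirely above or entirely below the 6 values in the a-type libraries (ulp2 slx5 and WT). Of 6474 genes that reached 1 FPKM in 3 or more libraries, 101 met this condition. FPKM counts sequenced fragments per transcript after correction for transcript length and for library size. Of the 101 genes, 55 were higher in the alpha type (0.850% of the tested genes) and 46 were lower (0.711%), which together made 1.56%. All 101 passed the filter on low values, and the whole table held 7126 genes. Because these values chose the genes, the differences between the types are described here without a test.

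Each group had 3 libraries of polyadenylated RNA from cells grown in rich medium with glucose at 30 °C. Per the labels, ulp2 was strain MHY5033 (ulp2::kanMX), slx5 was MHY7919 (slx5::kanMX), set1 was MHY8915 (set1::HIS3), ulp2 slx5 was MHY9109 (both deletions), and WT was MHY2972. The 4 mutants were all labelled MATalpha his3 leu2 met15 ura3 lys2, and WT was labelled MATa his3 leu2 ura3 lys2. The expression of the mating-type genes went against the label of the double mutant, which is therefore called a-type here by its expression and not by its label. Each genotype was represented by a single strain, so mating type, the deletions and any other difference between strains cannot be told apart for a single pair of groups.

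Haploid yeast cells are of type a or alpha, according to the allele at the MAT locus. The alpha1 protein, made from MATalpha, activates the alpha-specific genes together with Mcm1, and the alpha2 protein, also with Mcm1, represses the a-specific genes at operators in their promoters. Cells of type a make neither protein, so their a-specific genes are on and their alpha-specific genes are off. Each type secretes a pheromone that the receptor of the other type senses, and a kinase cascade shared by both types then activates fusion genes through the factor Ste12. ULP2 encodes a protease that removes the small protein SUMO from its targets, SLX5 a subunit of a ubiquitin ligase that recognises SUMO, and SET1 the histone H3 lysine methyltransferase of the COMPASS complex.

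The separation was wide for few genes and narrow for most. On the scale log2(FPKM + 1), the nearest values of the types were at least 1 apart for 9 of the 55 higher genes and 8 of the 46 lower genes. They were less than 0.1 apart for 29 higher and 27 lower genes. The difference of the type means (the 3 alpha-type group means averaged, minus the 2 a-type group means averaged) had a median of 0.70 over the higher genes and -0.43 over the lower genes, against 0.01 over all tested genes. The genes just inside the limit were GAS1, URA8 and YMR193C-A. For GAS1, a cell wall glucan-remodelling enzyme, the highest alpha-type value was 1351.52 FPKM and the lowest a-type value 1352.02 FPKM. For TAL1, CCS1 and YLF2, the genes just outside, the ranges overlapped by little: the highest CCS1 value was 187.336 FPKM in the alpha type and the lowest was 187.234 FPKM in the a type.

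The deleted genes were low in the strains labelled as lacking them. ULP2 was at 0 to 0.0691 FPKM in ulp2 and ulp2 slx5 libraries, SLX5 at 0 to 0.0764 FPKM in slx5 and ulp2 slx5 libraries, and SET1 at 0.0635 to 0.125 FPKM in set1 libraries. Library sums ran from 1213826 to 1761583 FPKM, and 645 to 819 genes per library were listed at 0. The marker genes LYS2 and MET17 (also called MET15) followed neither the types nor the labels, which give all strains as lys2 and the 4 mutants as met15. LYS2 was at no more than 0.128 FPKM in set1 and WT libraries and at 34.7 to 47.8 FPKM in the other groups, and MET17 was near 0 in slx5 libraries alone, at 0.359 to 1.06 FPKM, and at 120 to 329 FPKM in the other groups.

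The alpha-specific list separated the types completely, with 5 of 5 genes higher in the alpha type, where 0.850% of all tested genes were. MF(ALPHA)1 (YPL187W, chrXVI:193648-194145 on build R64), the main gene for the alpha pheromone, had 4297, 3793 and 3811 FPKM in ulp2, 4437, 4372 and 4468 FPKM in slx5 and 3755, 3495 and 3323 FPKM in set1, against 8.70, 12.2 and 5.49 FPKM in ulp2 slx5 and 8.99, 3.47 and 4.73 FPKM in WT. All 9 alpha-type libraries were far above all 6 a-type libraries, and this gene was itself used to name the types. Its type difference was 9.0 on the log2(FPKM + 1) scale.

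MF(ALPHA)2 (YGL089C, chrVII:344791-345153), the minor alpha pheromone gene, had 1587, 1511 and 1468 FPKM in ulp2, 2016, 2003 and 1908 FPKM in slx5 and 1840, 1947 and 1756 FPKM in set1, against 17.1, 14.9 and 16.0 FPKM in ulp2 slx5 and 20.1, 18.7 and 21.0 FPKM in WT. STE3 (YKL178C, chrXI:113215-114627), the receptor by which alpha cells sense the a pheromone, had 303, 308 and 314 FPKM in ulp2, 395, 394 and 405 FPKM in slx5 and 364, 331 and 358 FPKM in set1, against 6.77, 8.07 and 7.49 FPKM in ulp2 slx5 and 3.92, 2.58 and 2.62 FPKM in WT. SAG1, the alpha agglutinin that binds mating partners at the cell wall, had 662 to 943 FPKM in the alpha-type libraries, with a median of 840 FPKM, against 17.9 to 28.7 FPKM, with a median of 25.4 FPKM, in the a-type libraries. None of these ranges overlapped between the types. MF(ALPHA)1 and MF(ALPHA)2, and likewise MFA1 and MFA2, are close paralogs, and how their shared reads were split is not stated.

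AFB1 (YLR040C, chrXII:228908-229582), which encodes a secreted protein that blocks the a pheromone, had 1059, 1128 and 1158 FPKM in ulp2, 538, 578 and 586 FPKM in slx5 and 478, 489 and 577 FPKM in set1, against 50.6, 47.8 and 51.0 FPKM in ulp2 slx5 and 22.6, 34.5 and 26.2 FPKM in WT. The ulp2 libraries were the highest of the alpha type, and the median tested gene of chromosome XII was 0.78 higher in ulp2 than in WT on the log2(FPKM + 1) scale. The part of that chromosome in the AFB1 value was not tested. The type differences were 6.55 for MF(ALPHA)2, 5.92 for STE3, 5.02 for SAG1 and 4.18 for AFB1.

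The promoters of SAG1 and MF(ALPHA)2 are shown because, of the 5 alpha-specific genes, these held an exact match to the letters CAATGNCAG, a form of the Q box to which alpha1 binds beside Mcm1. The search covered 300 bases before the start codon of 6007 genes, on both strands, and 0.699% of these promoters held a match. The MF(ALPHA)2 stretch is chrVII:345433-345453 (minus strand) and the SAG1 stretch is chrX:445111-445143 (minus strand), read toward the gene from the R64 reference genome, with the match in capitals.
MF(ALPHA)2: CAATGCCAGcaacgatgtgcg
SAG1: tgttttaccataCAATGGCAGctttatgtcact

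HMRA1 and the a-specific genes ran the other way. HMRA1 (YCR097W, chrIII:293835-294321), the row for the a1 repressor, had 204, 208 and 219 FPKM in ulp2 slx5 and 271, 226 and 204 FPKM in WT. It was listed at 0 in 8 of the 9 alpha-type libraries, and at 0.481 FPKM in the remaining library, of ulp2. The silent HMR cassette and MATa share this sequence, so the row does not tell which locus was transcribed. The alpha genes of MAT and HML, which also share sequence, were listed at 0 in every library except for MATALPHA2 at 0.199 FPKM in 1 slx5 library, so the table has no positive signal for alpha1 or alpha2 themselves.

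All 7 a-specific genes were lower in the alpha type, where 0.711% of all tested genes were. MFA1 (YDR461W, chrIV:1385176-1385286), an a pheromone gene, had 800, 617 and 564 FPKM in ulp2, 335, 172 and 219 FPKM in slx5 and 134, 96.5 and 39.6 FPKM in set1, against 4150, 4853 and 4660 FPKM in ulp2 slx5 and 8315, 6565 and 8367 FPKM in WT. MFA2 (YNL145W, chrXIV:352414-352530), the other a pheromone gene, had 157, 135 and 187 FPKM in ulp2, 60.04, 21.6 and 82.4 FPKM in slx5 and 87.3, 29.1 and 45.8 FPKM in set1, against 2635, 3221 and 2889 FPKM in ulp2 slx5 and 6496, 5415 and 6327 FPKM in WT. For both genes WT was highest, ulp2 slx5 was next, and no alpha-type library reached either.

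STE2 (YFL026W, chrVI:82580-83875), the receptor for the alpha pheromone, had 32.7, 32.9 and 30.2 FPKM in ulp2, 16.7, 12.3 and 13.5 FPKM in slx5 and 8.17, 7.40 and 6.79 FPKM in set1, against 443, 458 and 444 FPKM in ulp2 slx5 and 845, 883 and 860 FPKM in WT. BAR1 (YIL015W, chrIX:322342-324105), the protease that degrades the alpha pheromone, had 18.9, 18.1 and 18.7 FPKM in ulp2, 10.01, 8.42 and 9.46 FPKM in slx5 and 4.54, 5.02 and 4.65 FPKM in set1, against 80.7, 82.5 and 86.3 FPKM in ulp2 slx5 and 156, 155 and 162 FPKM in WT. In both genes the 5 groups formed 5 separate ranges, in the order WT, ulp2 slx5, ulp2, slx5 and set1 from high to low.

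AGA2 (YGL032C, chrVII:436570-436833), the binding subunit of the a agglutinin, had 61.0, 71.3 and 54.3 FPKM in ulp2, 37.4, 27.5 and 42.1 FPKM in slx5 and 4.13, 3.25 and 3.50 FPKM in set1, against 279, 284 and 300 FPKM in ulp2 slx5 and 300, 322 and 264 FPKM in WT. STE6 (YKL209C, chrXI:42423-46295), the exporter of the a pheromone, had 5.36 to 8.30 FPKM in the alpha-type libraries, against 132 to 135 FPKM in ulp2 slx5 and 104 to 112 FPKM in WT. ASG7 (YJL170C, chrX:101150-101779), which acts on pheromone signalling after mating, had 2.94 to 14.5 FPKM in the alpha-type libraries, with its highest values in ulp2, against 19.2 to 23.8 FPKM in ulp2 slx5 and 21.5 to 23.9 FPKM in WT. The ulp2 slx5 and WT ranges overlapped for AGA2 and ASG7, while ulp2 slx5 was above WT for STE6. The type differences were -5.85 for MFA2, -5.27 for STE2, -4.68 for MFA1, -3.95 for STE6, -3.74 for AGA2, -3.46 for BAR1 and -1.54 for ASG7.

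**Figure D1:**
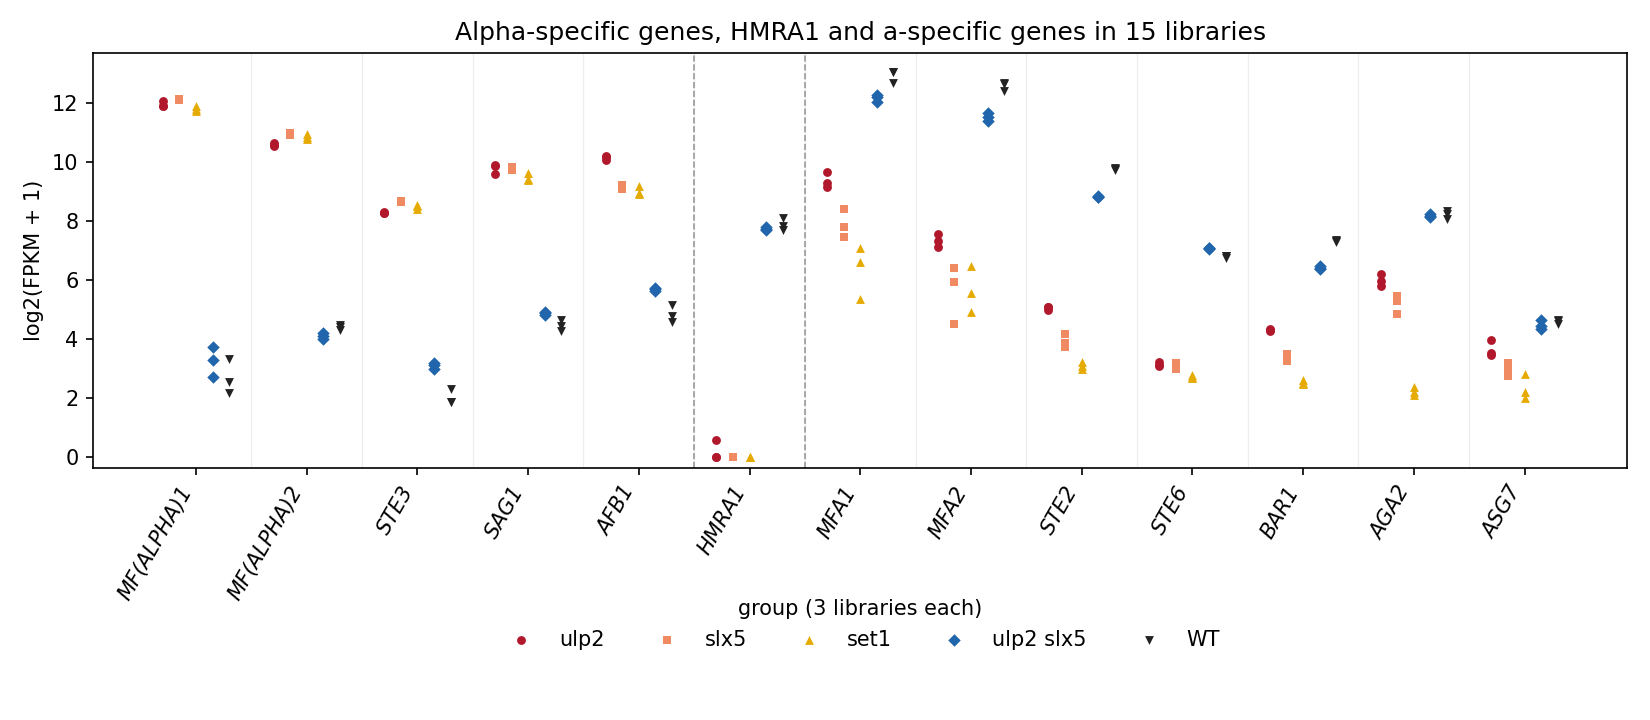
The plot gives log2(FPKM + 1) on the vertical axis for the 5 alpha-specific genes, HMRA1 and the 7 a-specific genes, with 1 point per library and the groups ulp2, slx5, set1, ulp2 slx5 and WT from left to right within a gene. No alpha-type point overlaps an a-type point in any of the 13 genes, and the a-specific genes show steps inside the alpha type, as for AGA2, which reached 71.3 FPKM in ulp2 and 4.13 FPKM in set1.

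The operators of the a-specific genes are shown because all 7 promoters share the arrangement. Searched were the letters CCNNNNNNGG (the core of an Mcm1 site) with the letters CATGTAA (a half-site of alpha2) within 12 bases, on both strands. The core alone was in 28.7% of the 6007 promoters, the half-site alone in 3.91% and the combination in 0.233%, or 14 promoters. Of the 101 genes, 52 higher and 43 lower ones had a promoter in the search, and none besides these 7 held it. The lines below are the R64 sequence on the strand of each gene, with the core and the exact half-site matches in capitals. In genome coordinates they are chrIV:1384940-1384973 (plus) for MFA1, chrXIV:352161-352194 (plus) for MFA2, chrVI:82350-82383 (plus) for STE2, chrXI:46476-46509 (minus) for STE6, chrIX:322076-322109 (plus) for BAR1, chrVII:437100-437133 (minus) for AGA2 and chrX:101904-101937 (minus) for ASG7.
MFA1: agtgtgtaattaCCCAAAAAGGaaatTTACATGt
MFA2: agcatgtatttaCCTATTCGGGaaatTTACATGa
STE2: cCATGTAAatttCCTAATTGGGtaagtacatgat
STE6: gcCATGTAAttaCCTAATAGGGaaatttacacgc
BAR1: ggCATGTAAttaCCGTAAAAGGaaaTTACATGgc
AGA2: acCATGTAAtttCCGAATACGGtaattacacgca
ASG7: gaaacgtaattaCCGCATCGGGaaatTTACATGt
BAR1 held an exact half-site on both sides of the core, and the other 6 held it on 1 side.

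The levels that remained in the alpha type differed between the 3 deletions. The comparison lies inside the alpha type. The choice of genes did not set these 3 groups against each other, but it used the same values and favours genes that vary little inside a type. The differences were tested with limma's moderated F test on log2(FPKM + 1) with Benjamini-Hochberg adjustment over the 6474 genes. All 7 a-specific genes passed at an adjusted p under 0.05, where 64.6% of the tested genes did. AGA2 was 3.77 higher in ulp2 than in set1 and 2.97 higher in slx5 than in set1 (SE 0.14, F test adjusted p = 9.09e-10). MFA1 was 3.01 higher in ulp2 than in set1 (SE 0.35, adjusted p = 3.37e-05), STE2 was 1.96 higher (SE 0.09, adjusted p = 7.61e-09) and BAR1 was 1.77 higher (SE 0.06, adjusted p = 7.18e-10), by the same limma test. MFA2 was 1.67 higher in ulp2 than in set1, ASG7 1.31 and STE6 0.42, with ulp2 the highest of the 3 by group mean in each. The slx5 and set1 libraries overlapped for MFA2 and ASG7, and the ulp2 and slx5 libraries overlapped for STE6.

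The 7 genes summed to 871 to 1092 FPKM in ulp2 libraries, 255 to 474 in slx5 and 109 to 250 in set1, against 7743 to 9049 in ulp2 slx5 and 13474 to 16240 in WT. In these bulk samples, fewer cells of a type and less RNA per cell cannot be told apart. HMRA1, which defines the a type, was listed at 0 in all slx5 and set1 libraries and in all but 1 ulp2 library. STE6 lost its F test call (adjusted p = 0.112 by limma) when values were quantile normalized, and the other 6 kept theirs in every alternative.

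Inside the a type, ulp2 slx5 and WT differed in part of the mating genes. Of the 101 genes, 46 passed the limma test of ulp2 slx5 against WT (45.5%, where 62.3% of all tested genes passed), with 37 higher and 9 lower. Across all tested genes, 32.9% were higher and 29.4% lower, and quantile normalization turned the counts of 2129 higher and 1902 lower into 1601 and 2409. The condition of no overlap favours genes that vary little inside a type, so a smaller share among the 101 is not read as a property of these genes. Nothing in the labels says that the 3 libraries of a group came from separate cultures, so p-values measure the spread between these libraries, which may be technical.

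Of the 7 a-specific genes, 3 were called lower in ulp2 slx5 than in WT and 1 higher (57.1% called, where 62.3% of all tested genes were). Of all tested genes, 29.4% were called lower and 32.9% higher. STE2 fell by 0.94 (SE 0.09, limma adjusted p = 1.27e-06) and BAR1 fell by 0.91 (SE 0.06, limma adjusted p = 4.93e-08) in ulp2 slx5. MFA2 was -1.06 (SE 0.42, limma adjusted p = 0.0434), and leaving out any 1 of the 6 libraries ended that call, at adjusted p = 0.0628 to 0.104. The MFA2 call was also lost with no filter (limma adjusted p = 0.0681) or after quantile normalization (-0.57, limma adjusted p = 0.251). MFA1 had a difference of -0.76 (SE 0.35, limma adjusted p = 0.0777), which did not pass, although it passed when the fit held only these 2 groups (adjusted p = 0.00287). STE6 was 0.28 higher in ulp2 slx5 (SE 0.06, limma adjusted p = 0.00169), and it lies on chromosome XI, where the median tested gene was 0.66 higher in ulp2 slx5 than in WT. AGA2 and ASG7 did not pass, with differences of -0.04 and -0.11.

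The alpha-specific transcripts that remained in the a type were in part higher in ulp2 slx5 than in WT. STE3 was 1.08 higher (SE 0.10, limma adjusted p = 1.21e-06), AFB1 was 0.84 higher (SE 0.12, limma adjusted p = 4.32e-05) and SAG1 was 0.41 higher (SE 0.10, limma adjusted p = 0.00376). STE3, like STE6, lies on chromosome XI. Quantile normalization ended the SAG1 call (0.26, limma adjusted p = 0.0514) and brought STE3 to 0.42 (limma adjusted p = 0.00537), which still passed. MF(ALPHA)2 was 0.30 lower (a log2 difference of -0.30, SE 0.06, limma adjusted p = 0.000835). MF(ALPHA)1 did not pass at 0.56 (SE 0.26, limma adjusted p = 0.0773), but passed without ulp2 slx5 replicate 2 (adjusted p = 0.0133) or without WT replicate 0 (adjusted p = 0.00364). All of these differences are small beside the type differences of 4.18 to 9.0.

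Inside the alpha type, 4 of the 5 alpha-specific genes passed the F test, where 64.6% of all tested genes did. AFB1 was 1.12 higher in ulp2 than in set1 (SE 0.12, limma adjusted p = 6.18e-06), and MF(ALPHA)2 was -0.28 in ulp2 minus set1 (SE 0.06, limma adjusted p = 0.000354). The calls of STE3 (adjusted p = 0.0193) and SAG1 (adjusted p = 0.0276), by limma, were lost without single libraries. STE3 lost its call without ulp2 replicate 0 (adjusted p = 0.0504) or slx5 replicate 2 (0.0542), and SAG1 without ulp2 replicate 2 (0.0508), slx5 replicate 1 (0.0508), set1 replicate 0 (0.0958) or set1 replicate 1 (0.119). The STE3 call was also lost with a pseudocount of 0.1 (0.0518) or quantile normalization (0.0879). MF(ALPHA)1 did not pass (limma adjusted p = 0.521), although it passed when the fit held only these 3 groups (adjusted p = 0.00932) or after quantile normalization (0.0484).

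Genes that both mating types induce on pheromone exposure formed the next group. Of 20 such genes, 8 were higher in the alpha type without overlap and none was lower, against 0.850% of all tested genes higher. The median type difference of the 20 was 0.56, and the 8 ran from 0.64 to 2.49. FIG1 (YBR040W, chrII:316968-317864), a membrane protein needed for efficient mating, had 45.4, 47.7 and 44.9 FPKM in ulp2, 38.4, 39.3 and 36.0 FPKM in slx5 and 32.7, 33.5 and 29.0 FPKM in set1, against 10.3, 11.2 and 11.2 FPKM in ulp2 slx5 and 2.96, 3.26 and 2.95 FPKM in WT. The types did not overlap, and ulp2 slx5 lay between the alpha type and WT.

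PRM1, which acts in the fusion of plasma membranes, had 35.2, 40.4 and 40.3 FPKM in ulp2, 28.5, 27.3 and 26.1 FPKM in slx5 and 24.9, 21.8 and 22.1 FPKM in set1, against 16.1, 15.5 and 14.9 FPKM in ulp2 slx5 and 6.17, 6.38 and 5.23 FPKM in WT. PRM6, a pheromone-regulated membrane protein, had 9.04 to 14.2 FPKM in the alpha type, against 2.23 to 3.17 FPKM in ulp2 slx5 and 0.782 to 1.33 FPKM in WT. FUS2, which acts in cell fusion, had 10.8 to 15.9 FPKM in the alpha type, against 6.60 to 8.11 FPKM in ulp2 slx5 and 3.46 to 4.38 FPKM in WT. In all 3 genes, as in FIG1, the double mutant took a middle place.

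AGA1, FUS1 and KAR4 had another order. AGA1, the cell wall anchor of the a agglutinin, had 160, 203 and 200 FPKM in ulp2, 176, 177 and 179 FPKM in slx5 and 125, 123 and 153 FPKM in set1, against 48.4, 44.6 and 48.6 FPKM in ulp2 slx5 and 44.1, 65.5 and 51.7 FPKM in WT. FUS1, a membrane protein of cell fusion, had 36.0 to 51.5 FPKM in the alpha type, against 14.5 to 18.1 FPKM in ulp2 slx5 and 20.4 to 22.9 FPKM in WT. KAR4, a transcription factor for nuclear fusion genes, had 77.0 to 135 FPKM in the alpha type, against 46.1 to 51.8 FPKM in ulp2 slx5 and 52.5 to 61.0 FPKM in WT. The double mutant was below WT for FUS1 and KAR4 and overlapped WT for AGA1. PRM2, which acts in nuclear fusion, was the narrowest of the 8, with 6.83 to 12.6 FPKM in the alpha type, against 5.94 to 6.81 FPKM in ulp2 slx5 and 3.72 to 5.69 FPKM in WT.

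Tested inside the a type, 5 of these 8 genes were higher in ulp2 slx5 than in WT and 1 was lower, where 32.9% of all tested genes were higher and 29.4% lower. FIG1 was 1.55 higher (SE 0.07, limma adjusted p = 9.46e-10) and PRM1 was 1.25 higher (SE 0.08, limma adjusted p = 4.00e-08). PRM6 was 0.94 higher (limma adjusted p = 3.51e-05), FUS2 0.80 higher (adjusted p = 0.000114) and PRM2 0.35 higher (adjusted p = 0.0404). PRM6 and FUS2 lie on chromosome XIII, where the median tested gene was 0.47 higher in ulp2 slx5 than in WT, and the part of that shift in their values was not tested. FUS1 was -0.35 (SE 0.08, limma adjusted p = 0.00274), and AGA1 and KAR4 did not pass, each at -0.17. The PRM2 call was lost when any 1 of 5 of the 6 libraries was left out (adjusted p = 0.0551 to 0.181, every library but WT replicate 2), and quantile normalization ended the calls of PRM6 (adjusted p = 0.0661), FUS2 (0.273) and PRM2 and turned PRM2 to -0.28. Inside the alpha type, 7 of the 8 passed the F test, where 64.6% of all tested genes did. FUS2 was the exception at a limma adjusted p of 0.138. Of all 20 genes of the list, 19 passed the F test, and 11 were called higher and 3 lower in ulp2 slx5 than in WT. AGA1 (adjusted p = 0.0108) lost its call without set1 replicate 1 (0.0528). PRM6 (0.0225) lost its call without each of ulp2 replicate 2 and set1 replicates 0, 1 and 2 (0.0514 to 0.0678), and FUS2 gained a call without set1 replicate 2 (0.0425). The PRM6 call was also lost with a pseudocount of 0.1 (0.0803), a filter of 10 FPKM (0.0678) or quantile normalization (0.288).

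The other 12 genes of the list overlapped between the types. FIG2, a cell wall adhesin, had 15.3 to 33.7 FPKM in the alpha type, against 16.6 to 17.6 FPKM in ulp2 slx5 and 7.01 to 9.96 FPKM in WT. The WT libraries lay below the alpha-type range and the double mutant lay inside it. Of the alpha type, set1 had the lowest group mean of FIG2, and ulp2 was 0.89 and slx5 0.55 higher than set1 on the log2(FPKM + 1) scale. PRM5, induced by pheromone and by cell wall stress, had 167 to 193 FPKM in ulp2 and slx5 and 56.4 to 64.8 FPKM in set1, against 95.8 to 107 FPKM in ulp2 slx5 and 45.0 to 48.1 FPKM in WT. For PRM5 the set1 libraries stood below the double mutant.

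**Figure D2:**
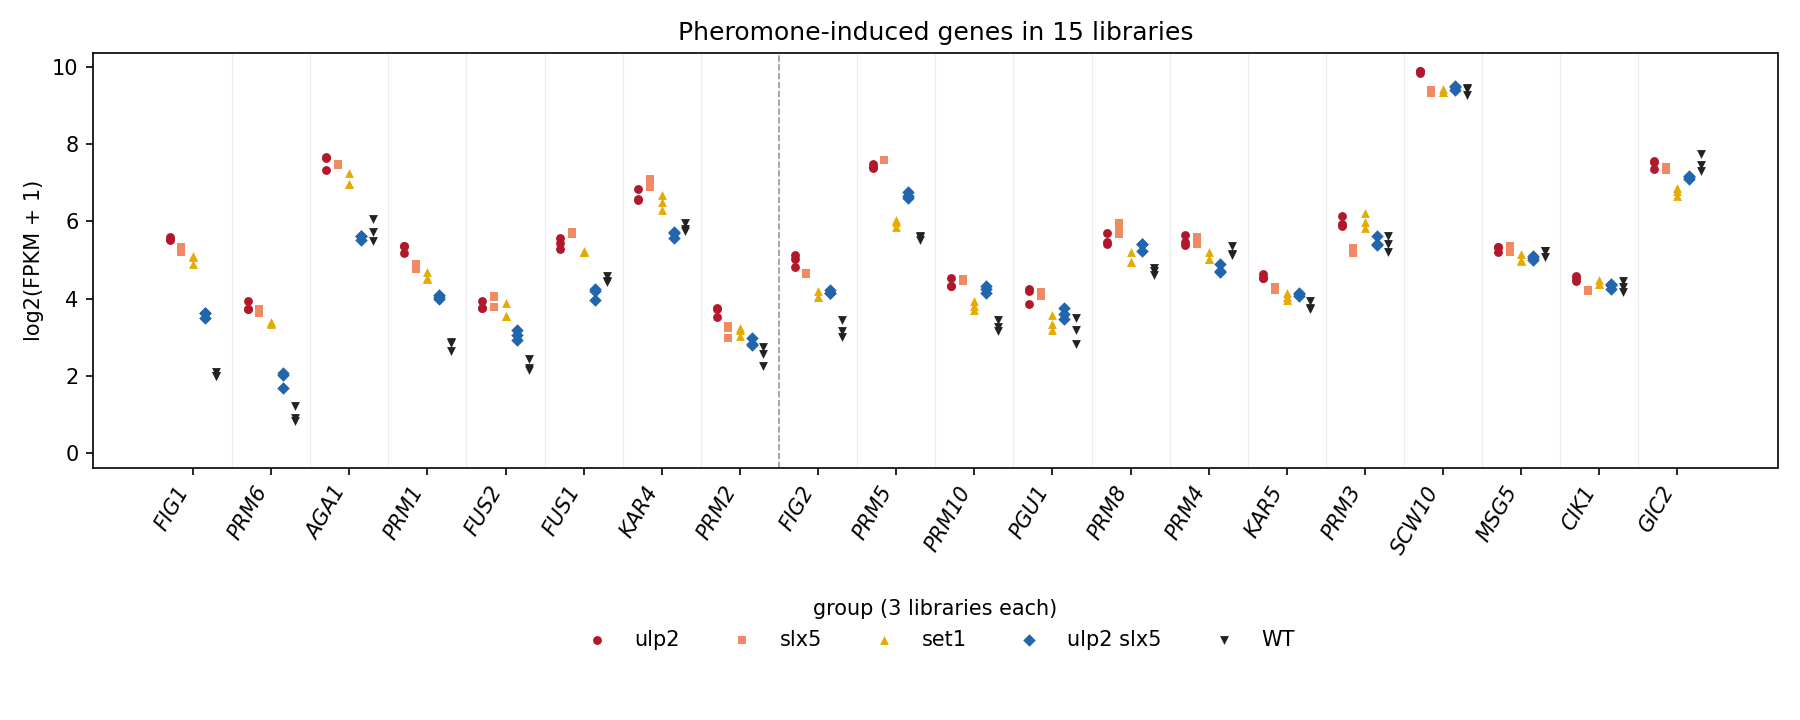
The plot gives log2(FPKM + 1) on the vertical axis for the 20 pheromone-induced genes, with 1 point per library and the groups ulp2, slx5, set1, ulp2 slx5 and WT from left to right within a gene. The 8 genes left of the dashed line have no overlap between the types; FIG1, PRM6, PRM1 and FUS2 show ulp2 slx5 between the alpha type and WT.

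Matches to TGAAACA, the element that Ste12 binds, were counted in the same promoters on both strands. They were in 7 of the 8 pheromone-induced genes of the 101 and in 11 of all 20, against 7.19% of the 6007 promoters. Among all higher genes with a promoter, 12 of 52 held the element (23.1%), and among the lower genes 7 of 43 (16.3%), of which 5 were a-specific. PRM1 and FUS1 are shown because they hold several copies close together, at chrXIV:110730-110770 (plus strand) and chrIII:71610-71655 (plus strand) of R64, with exact matches on either strand in capitals.
PRM1: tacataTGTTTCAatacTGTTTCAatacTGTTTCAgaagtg
FUS1: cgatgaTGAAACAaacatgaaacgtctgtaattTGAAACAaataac

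The haploid-specific list, which holds genes of the signalling cascade, had a median type difference of 0.03. None of its 18 genes met the condition, and with 1.56% of all tested genes meeting it, a count of 0 in a list of this size is near that share. GPA1, the alpha subunit of the G protein behind the receptors, had 127 to 143 FPKM in the alpha type, against 69.0 to 70.5 FPKM in ulp2 slx5 and 135 to 143 FPKM in WT. Inside the a type, 10 of the 18 genes were lower in ulp2 slx5 than in WT and 3 were higher, where 29.4% of all tested genes were lower and 32.9% higher. Across all tested genes that split turned to 1842 higher and 2231 lower under median scaling, as it turned under quantile normalization. GPA1 fell by 0.98 (SE 0.04, limma adjusted p = 1.60e-10), STE4, the beta subunit, fell by 1.06 (SE 0.05, limma adjusted p = 2.58e-09), FAR1, which arrests the cell cycle on pheromone, fell by 1.01 (SE 0.06, limma adjusted p = 9.85e-09), and HO, the endonuclease of mating-type switching, fell by 1.89 (SE 0.09, limma adjusted p = 1.39e-09). The double mutant was the outlying group for GPA1 and FAR1, with WT inside or beside the alpha-type range.

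**Figure D3:**
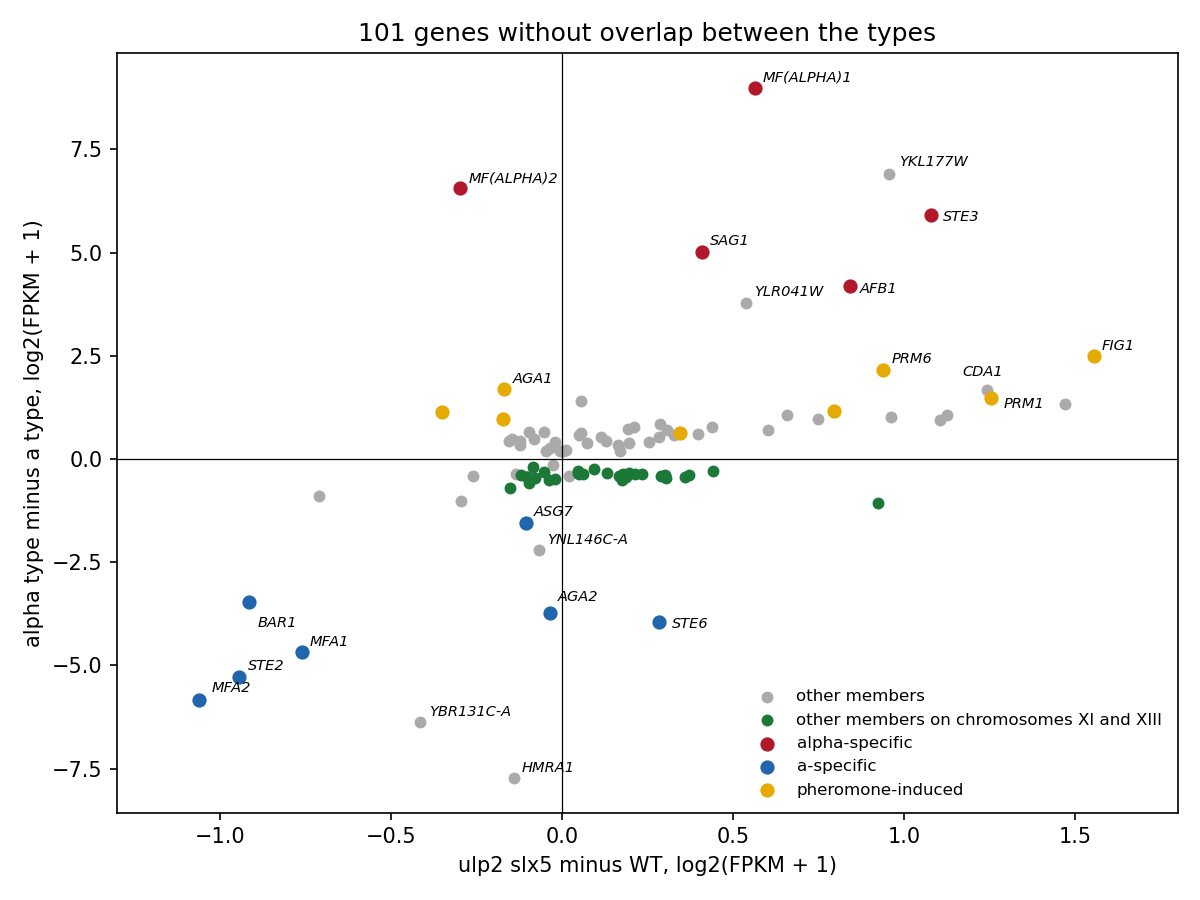
Each point is 1 of the 101 genes, with the difference ulp2 slx5 minus WT on the horizontal axis and the difference alpha type minus a type on the vertical axis, both on the log2(FPKM + 1) scale, and colours for the gene lists. MF(ALPHA)1 is at 9.0 and MFA2 at -5.85 on the vertical axis, most other genes lie within 1 of 0, and FIG1 and PRM1 are farthest right among the pheromone-induced genes, at 1.55 and 1.25.

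Of the nearest annotated neighbours of the mating genes, LIF1 and GYP8 were on the same side as the gene beside them. LIF1, a partner of DNA ligase in end joining, had 47.9, 58.0 and 58.5 FPKM in ulp2, 58.8, 56.0 and 64.5 FPKM in slx5 and 42.7, 40.3 and 48.3 FPKM in set1, against 19.9, 18.9 and 20.0 FPKM in ulp2 slx5 and 16.5, 20.3 and 19.9 FPKM in WT. Its 3′ end faces that of MF(ALPHA)2, with 206 bases between the annotated genes. GYP8, a GTPase-activating protein of membrane traffic, had 19.6 to 22.9 FPKM in the alpha type, against 30.4, 29.9 and 32.9 FPKM in ulp2 slx5 and 54.5, 48.4 and 51.5 FPKM in WT. It is divergent from STE2, with 667 bases between them, and like STE2 it was lower in ulp2 slx5 than in WT (-0.71, SE 0.06, limma adjusted p = 4.60e-07).

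TRI1, on the same strand as FUS2 and 225 bases after it, was 63.0 to 63.6 FPKM in ulp2, 50.1 to 52.4 FPKM in slx5 and 48.2 to 55.5 FPKM in set1, against 72.1 to 77.2 FPKM in ulp2 slx5 and 73.8 to 84.9 FPKM in WT, which is opposite to FUS2. HIS5, which was higher in the alpha type, is divergent from PRM5, which overlapped between the types. Counting the nearest annotated gene on each side, 1 of 10 neighbours of the alpha-specific genes, 1 of 14 of the a-specific genes and 2 of 40 of the pheromone-induced genes (1 higher, 1 lower) were among the 101, where 1.56% of all tested genes were. YNL146C-A, which had 0 to 6.60 FPKM in the alpha type, against 9.22 to 16.7 FPKM in ulp2 slx5 and 8.97 to 18.6 FPKM in WT, lies 833 bases from MFA2. YNL146W lies between the 2 genes and overlapped between the types, with a difference of -0.05. Whether the counting used strand was not stated, so reads that run from a gene into a facing neighbour cannot be told apart from the neighbour's own.

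Of the 9 higher genes with a gap of at least 1, YKL177W and YLR041W had no match in the reference annotation. YKL177W had 317 to 459 FPKM in the alpha type, against 2.17 to 5.60 FPKM in ulp2 slx5 and 0.574 to 2.05 FPKM in WT, and its systematic name is next in number to that of STE3. YLR041W had 1080, 1170 and 1207 FPKM in ulp2, 581, 624 and 600 FPKM in slx5 and 469, 522 and 542 FPKM in set1, against 64.4, 54.1 and 64.5 FPKM in ulp2 slx5 and 36.9, 42.7 and 45.5 FPKM in WT, and its name is next in number to that of AFB1. YBR131C-A was listed at 0 in all 9 alpha-type libraries, against 77.4, 63.8 and 71.0 FPKM in ulp2 slx5 and 80.6, 164 and 63.2 FPKM in WT. These rows matched no annotated gene, so no position or role is given. Whether the YKL177W and YLR041W rows repeat reads of STE3 and AFB1 was not tested, so they may not be separate from those genes.

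IZH4 and CDA1 had the widest gaps of the annotated higher genes that are neither mating genes nor their neighbours. IZH4, a membrane protein linked to zinc balance, had 86.2 to 91.9 FPKM in ulp2, 70.1 to 74.2 FPKM in slx5 and 97.0 to 99.8 FPKM in set1, against 48.4 to 52.8 FPKM in ulp2 slx5 and 28.6 to 37.8 FPKM in WT. CDA1, a chitin deacetylase of the spore wall, had 12.7 to 23.2 FPKM in the alpha type, against 6.66 to 9.71 FPKM in ulp2 slx5 and 1.46 to 3.62 FPKM in WT, and was 1.24 higher in ulp2 slx5 than in WT (SE 0.22, limma adjusted p = 0.000322). In both genes the double mutant lay between.

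Genes of amino acid and purine synthesis were a smaller group with narrow gaps. From a list added after the values were seen, 7 of 68 genes were higher in the alpha type (0.850% of all tested genes were) and none was lower, with type differences of 0.41 to 0.72 and gaps of 0.05 to 0.36. SHM2, the cytosolic serine hydroxymethyltransferase, had 437 to 446 FPKM in ulp2, 305 to 309 FPKM in slx5 and 441 to 466 FPKM in set1, against 252 to 262 FPKM in ulp2 slx5 and 213 to 230 FPKM in WT. HIS4, of histidine synthesis, had 130 to 176 FPKM in the alpha type, against 96.2 to 98.2 FPKM in ulp2 slx5 and 83.6 to 101 FPKM in WT. The other 5 were ARG4, HIS5, TRP5, ADE2 and ADE12. HIS3, the marker used to delete SET1, was also higher, at 120 to 133 FPKM in ulp2 and slx5 and 131 to 176 FPKM in set1, against 105 to 112 FPKM in ulp2 slx5 and 82.8 to 104 FPKM in WT.

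The other lists held few or no genes of the 101, and for lists of their size a count of 0 is near the 1.56% of all tested genes. Of 25 sulfur and methionine genes, 2 were higher (MET10 and MET16, both of sulfate assimilation), and of 20 iron regulon genes 1 was lower (FET3, the multicopper oxidase of iron uptake). None of 32 induced stress response genes, 45 respiratory chain and TCA cycle genes, 16 phosphate regulon genes or 12 SUMO pathway genes met the condition. All 32 stress genes and all 45 respiratory genes were nonetheless called higher in ulp2 slx5 than in WT, where 32.9% of all tested genes were. Their median differences were 2.22 and 0.93. Of the 101 genes, 21 were in the mating lists (alpha-specific, a-specific, HMRA1 and pheromone-induced), and 67 were in no list.

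The lower genes were concentrated on 2 chromosomes. Of the 46, 17 lay on chromosome XI, with 314 tested genes, and 13 on chromosome XIII, with 458, where 0.711% of all tested genes were lower. Counting both directions, 5.73% of the tested genes of XI and 3.28% of those of XIII were among the 101, against 1.56% of all tested genes. Chromosomes VI and III had total shares of 3.23% and 3.14%, but with 2 and 1 lower genes. The median tested gene was 0.66 higher on XI and 0.47 higher on XIII in ulp2 slx5 than in WT, on the log2(FPKM + 1) scale. Of the 30 lower genes on XI and XIII, STE6 alone had a gap of at least 1. The other 29 had gaps of 0.00053 to 0.31 and type differences of -1.06 to -0.21. None of the 30 was called lower in ulp2 slx5 than in WT, 11 were called higher and 19 did not pass. Of all tested genes, 32.9% were called higher and 29.4% lower. The choice of the 30 used the values of both groups, so nothing is read from these counts. The group mean of ulp2 slx5 was above that of WT for 21 of the 30. It was above that of WT for 1 of the other 16 lower genes, of which 3 matched no annotated gene and have no position here.

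PTR2, the di- and tripeptide transporter on chromosome XI, had 52.2, 56.0 and 51.2 FPKM in ulp2, 106, 105 and 98.8 FPKM in slx5 and 83.2, 93.3 and 97.0 FPKM in set1, against 232, 224 and 236 FPKM in ulp2 slx5 and 113, 127 and 124 FPKM in WT. Its highest alpha-type library, of slx5, came close to its lowest WT library. PHD1, a transcription factor of filamentous growth on XI, had 21.9 to 26.5 FPKM in ulp2, 33.1 to 36.9 FPKM in slx5 and 29.4 to 37.7 FPKM in set1, against 46.8 to 49.8 FPKM in ulp2 slx5 and 47.4 to 66.2 FPKM in WT. UTP30, a ribosome assembly protein on XI, had 70.8 to 86.1 FPKM in the alpha type, against 110 to 124 FPKM in ulp2 slx5 and 102 to 105 FPKM in WT. OST6, an oligosaccharyltransferase subunit on XIII, had 60.4 to 76.0 FPKM in the alpha type, against 94.8 to 103 FPKM in ulp2 slx5 and 93.0 to 110 FPKM in WT. The ulp2 slx5 and WT libraries overlapped for PHD1 and OST6 and did not overlap for PTR2 and UTP30.

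**Figure D4:**
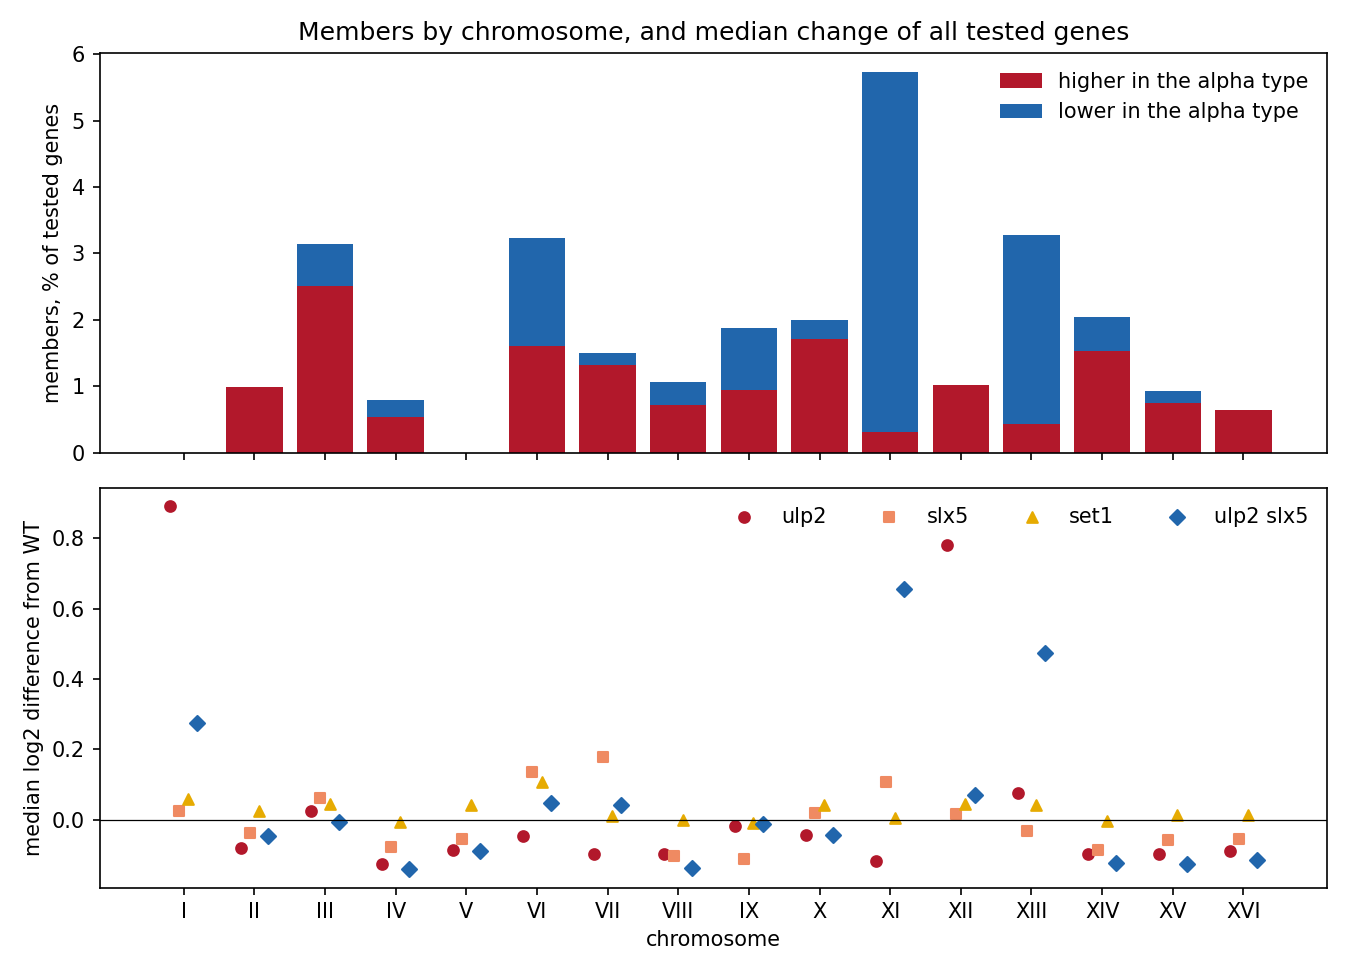
The upper panel gives, for each nuclear chromosome, the percent of its tested genes that separate the types, higher (red) or lower (blue) in the alpha type. The lower panel gives the median log2(FPKM + 1) difference from WT of all tested genes of the chromosome, with 1 point per mutant. Chromosome XI has the highest bar, at 5.73%, and the double mutant stands at 0.66 there and at 0.47 on XIII. On chromosome I ulp2 stands at 0.89. None of the 91 tested genes of chromosome I is among the 101, a count near the share of 1.56% of all tested genes.

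Far fewer genes met the condition with both a-type groups than with either alone. Without ulp2 slx5, the 9 values of the alpha type were compared with 3 of WT, and 770 genes were higher and 468 lower without overlap. Without WT, 657 were higher and 872 lower against ulp2 slx5. Without ulp2, slx5 or set1 the counts were 124 and 102, 154 and 155, and 174 and 148. Each of these sets holds the 101 genes by construction, and smaller groups make separation easier.

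**Figure D5:**
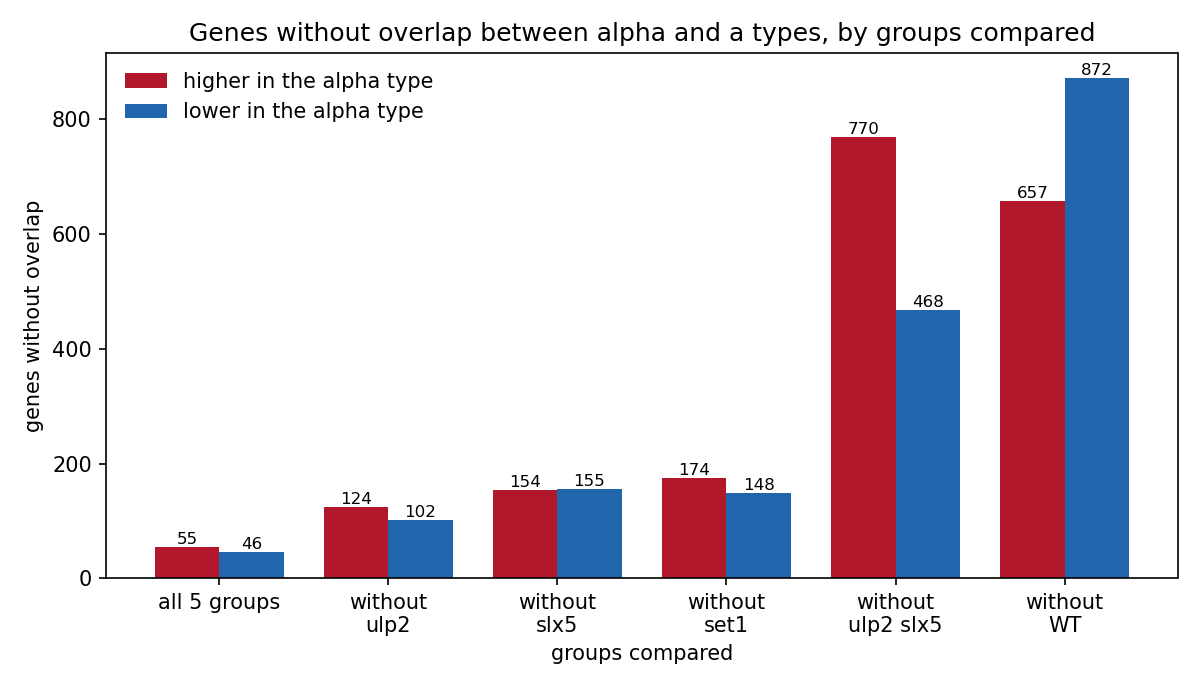
Bars give the number of genes without overlap between the types, higher (red) or lower (blue) in the alpha type, for all 5 groups and with each group left out. Leaving out ulp2 slx5 or WT gave the highest counts, 770 and 468, and 657 and 872, against 55 and 46 with all groups.

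The calls of ulp2 slx5 against WT are given by direction as a description, since the choice of genes used the values of both groups and nothing is read from the shares. Of the 55 higher genes, 26 were called higher in ulp2 slx5 than in WT (47.3%) and 4 lower (7.27%), where 32.9% and 29.4% of all tested genes were. By group mean, WT was the lowest of the 5 groups for 39 of the 55 and ulp2 slx5 for 16. The median difference of ulp2 slx5 minus WT over the 55 was 0.20, against 0.03 over all tested genes. Of the 46 lower genes, 11 were called higher in ulp2 slx5 and all 11 lay on XI or XIII, and 5 were called lower. The double mutant shares its deletions with ulp2 and slx5, and its strain and mating-type expression with neither, so these contributions cannot be told apart.

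Among the 101 genes, 61 passed the F test inside the alpha type (60.4%, where 64.6% of all tested genes did). Neither this test nor that of ulp2 slx5 against WT was passed by 26 of the 101, and by 1199 of all 6474 tested genes. The condition of no overlap favours genes that vary little inside a type, so nothing is read from this count. These 26 included MF(ALPHA)1, HMRA1, YBR131C-A, OST6 and UTP30. YBR131C-A was at 0 FPKM and HMRA1 at no more than 0.481 FPKM in the alpha-type libraries, so the F test could hardly have called them. A missed threshold does not show that the groups were equal. For MF(ALPHA)1, for example, limma's confidence interval of ulp2 slx5 minus WT ran from -0.0014 to 1.13 on the log2(FPKM + 1) scale.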

How the data were processed

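RNA was measured in 15 libraries, 3 for each of 5 groups taken from the sample titles. The deposited table holds FPKM for 7126 genes. The authors' tools, per the submitters' processing notes, were TopHat2 2.0.12 and Cuffdiff, with build R64. The Cuffdiff version, annotation, strandedness and filters are not given in the sources used here. FPKM hold no counts, so depth is unknown and no counting interval was computed; relative depth, estimated from the steps of the lowest values, ran from 0.462 (set1 replicate 0, from 4 genes) to 1.04. No pair of libraries was identical, and the highest correlation between 2 libraries on the log2 scale was 0.981. By systematic name, 6048 genes matched the R64 reference, which gave symbols, positions and sequences, and 1078 did not.

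Values were analysed as log2(FPKM + 1), which understates the change of low genes, with no further scaling. Genes that reached 1 FPKM in 3 or more libraries entered a single limma 3.58.1 fit (R 4.3.3; lmFit, eBayes with trend; 10 residual degrees of freedom). P-values were adjusted by Benjamini-Hochberg and called under 0.05. The tests were ulp2 slx5 minus WT and an F test among ulp2, slx5 and set1. The fit was tested on simulated data.

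The genes and the lists were chosen with earlier results of these data known. Named were the genes of the mating, marker and deleted-gene lists and, with a mean of at least 10 FPKM on the higher side, the 15 genes per direction with the widest gap, 3 on each side of the limit, and the 5 with the largest rise, fall and F statistic. The other list genes named (amino acid, purine, sulfur and iron), and PDC6, PES4, SPR3 and HXT4, were chosen after their values were seen. Alternatives changed pseudocount, filter, scaling, margin, libraries, groups, chromosomes and the samples in the fit.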

Additional observations from a re-analysis of the deposited data

How the results depend on the processing

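Leaving out each library in turn gave 57 to 70 higher and 47 to 67 lower genes. Values without overlap stay so when a library is left out, so the 55 higher and 46 lower genes were kept by construction. These counts therefore do not test how stable the 55 and 46 are. With each library left out, the test of ulp2 slx5 against WT gave 3679 to 3835 calls, against 4031 with all libraries. The F test gave 3846 to 4082, against 4183. Quantile normalization gave 59 higher and 72 lower genes, of which 41 and 39 were shared with the 55 and 46, and median scaling 71 and 45, of which 52 and 39 were shared. Requiring a gap of at least 1 left 9 and 8. Settings chosen after seeing the data gave 52 and 16 without chromosomes XI and XIII, 124 and 102 without ulp2, 154 and 155 without slx5, 174 and 148 without set1, 770 and 468 without ulp2 slx5, and 657 and 872 without WT; fewer libraries or genes are compared in each. A filter of 10 FPKM gave 47 and 46. For ulp2 slx5 against WT, median scaling gave 1842 higher and 2231 lower genes. Of 840 values of named genes under alternatives, 792 kept direction and call, 38 lost the call, 9 gained it and 1 reversed: PRM2 in ulp2 slx5 minus WT, at -0.28 (limma adjusted p = 0.0568) after quantile normalization. The cause of these changes was not tested. Residuals of libraries of the same replicate number correlated by -0.128 to 0.140. Libraries of different numbers were not compared, so whether the numbers pair the libraries was not tested. A replicate block gave 4016 and 4150 calls. Without counts, low values such as those of PRM6 in WT have unknown precision.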

Other observations

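The following 4 higher genes, picked after their values were seen, had narrow gaps and had ulp2 slx5 between the alpha type and WT. PDC6, a minor pyruvate decarboxylase, had 4.07 to 7.23 FPKM in the alpha type, against 2.96 to 3.92 FPKM in ulp2 slx5 and 0.253 to 0.726 FPKM in WT, and was 1.47 higher in ulp2 slx5 than in WT on the log2(FPKM + 1) scale (SE 0.15, limma adjusted p = 3.30e-06). PES4, an RNA-binding protein of meiosis, had 4.09 to 6.18 FPKM in the alpha type, against 2.98 to 3.37 FPKM in ulp2 slx5 and 0.543 to 1.24 FPKM in WT. SPR3, a septin of sporulating cells, had 2.85 to 5.43 FPKM in the alpha type, against 1.69 to 2.72 FPKM in ulp2 slx5 and 0.366 to 0.953 FPKM in WT. HXT4, a glucose transporter, had 141 to 148 FPKM in ulp2, 122 to 136 FPKM in slx5 and 223 to 256 FPKM in set1, against 105 to 115 FPKM in ulp2 slx5 and 51.4 to 71.4 FPKM in WT. In each of these genes the ulp2 slx5 libraries lay above all WT libraries and below all alpha-type libraries.

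A row named SCR1, with no match in the reference annotation, had 267 to 459 FPKM in ulp2, 290 to 359 FPKM in slx5 and 488 to 668 FPKM in set1, against 731 to 758 FPKM in ulp2 slx5 and 696 to 1191 FPKM in WT.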
